A study of Rattus norvegicus with 48 samples.

Results

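Interleukins and the ligands of the tumour necrosis factor (TNF) superfamily are the messages that immune, epithelial and stromal cells use to start and stop inflammation, and their receptors decide which cells can answer. The 56 genes described here are those of rat kidney whose probe set carried a single symbol beginning with Il and a digit, Tnfsf or Tnfrsf, or the symbol Tnf itself. Tnfrsf12a was left out. They are 56 of the 7589 genes with a named probe set, chosen by name and not by any measured value, and comprise 27 ligands (with the receptor antagonist Il1rn among them) and 29 receptors and binding proteins. Each had 1 probe set.

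RNA from kidneys of male rats, 12 weeks old in the sample labels and 12 to 14 weeks in the protocol, was measured on whole-transcript arrays. The 4 strains are labelled F, L, FL and LF, and the labels do not say what the letters mean. Within each strain, rats were gavaged daily with indole-3-carbinol at 100 mg/kg for 7 or 10 days (day 7 and day 10 below), and carrier rats given vegetable oil make up day 0, so every kidney came from a gavaged animal. Each of the 12 groups of 8 rats is represented by 4 arrays called biological replicates in the design, 48 in all, and the labels do not say if the RNA on an array was pooled.

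The interleukin 1 family, which includes Il1a, Il1b, Il18 and Il33, signals through paired receptor chains to NF-kB, a transcription factor that switches on inflammatory genes. TNF and its relatives reach NF-kB or cell death through the Tnfrsf receptors. Most other interleukins act through cytokine receptors that activate JAK kinases and STAT transcription factors, as Il6 does through Il6r and the shared chain Il6st, and Il10 and Il24 through receptors of their own family. Indole-3-carbinol comes from cruciferous vegetables, and the products it forms in acid activate the aryl hydrocarbon receptor, a transcription factor found in immune as well as in epithelial cells.

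Across the 56 genes, 4 differences passed an adjusted p of 0.05, each in 1 of 16 comparisons: Il24 was higher at day 10 than at day 0 averaged over the strains, Il33 was lower in LF at day 7, and Tnfsf12 and Il1rap differed between FL and LF carrier kidneys. The upstream sequences of Il24, Il33 and Il1rap are given because these genes carry those differences. They run from 250 bases before to 50 bases after the annotated start in RefSeq (GRCr8), which held 41 of the 56 genes and no entry for Tnfsf12. Il24 lies at chr13:44910711-44911010 on the minus strand, Il33 at chr1:237115323-237115622 on the plus strand, and Il1rap at chr11:87704293-87704592 on the minus strand. Capitals mark letters that match a searched motif on either strand.
Il24: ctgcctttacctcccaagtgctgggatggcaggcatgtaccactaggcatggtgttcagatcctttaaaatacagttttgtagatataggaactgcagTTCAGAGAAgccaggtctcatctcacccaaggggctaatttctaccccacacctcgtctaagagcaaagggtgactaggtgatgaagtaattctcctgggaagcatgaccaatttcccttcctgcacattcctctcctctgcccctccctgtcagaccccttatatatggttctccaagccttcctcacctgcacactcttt
Il33: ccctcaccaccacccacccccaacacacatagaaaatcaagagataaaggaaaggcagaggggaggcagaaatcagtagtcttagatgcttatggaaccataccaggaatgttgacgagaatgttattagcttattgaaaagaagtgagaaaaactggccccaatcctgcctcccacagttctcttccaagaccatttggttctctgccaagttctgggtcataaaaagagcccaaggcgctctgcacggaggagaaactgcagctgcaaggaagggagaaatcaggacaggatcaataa
Il1rap: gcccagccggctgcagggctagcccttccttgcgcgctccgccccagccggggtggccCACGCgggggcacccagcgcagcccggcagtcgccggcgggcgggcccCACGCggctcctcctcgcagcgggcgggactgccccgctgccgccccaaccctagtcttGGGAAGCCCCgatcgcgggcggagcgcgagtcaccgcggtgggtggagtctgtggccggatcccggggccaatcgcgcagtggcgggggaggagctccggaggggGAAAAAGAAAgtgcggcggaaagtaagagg
The motifs were the core of the aryl hydrocarbon receptor site (GCGTG), a STAT element (TTCNNNGAA), an interferon response element, an AP-1 element (TGANTCA) and the NF-kB element. In Il24 the capitals are a STAT match at positions -152 to -144 relative to the start. In Il1rap they are, from left to right, 2 receptor cores read on the opposite strand, an NF-kB match and, just after the start, an interferon match. The Il33 window held none of these letters, which says nothing beyond this window. Such matches are common: the receptor core occurred in 29.7% of all 33469 promoters of this length and in 14 of the 41 matched genes, the NF-kB element in 7.51% and 6, the AP-1 element in 7.33% and 6, the interferon element in 3.92% and 5, and the STAT element in 8.87% and 1.

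Values are log2 signals, on which a difference of 1 is a doubling. Signals of different probe sets are not comparable in height, and an array has no true zero. On these arrays 18 of the 56 genes, 11 ligands and 7 receptors, fell in the dimmest 25% of probe sets (a mean under 3.64), among them Il6, Il10, Il1a, Il1rn, Il4, Il5, Il18 and Il24. The SD within groups had a median of 0.206 over the 56 genes (0.102 for Il1a to 0.414 for Tnfrsf11b), against 0.205 over all probe sets. Mean signals of 9 measured kidney markers ran between 6.80 for the podocyte gene Nphs1 and 12.8 for the tubule gene Umod. Those of macrophage and dendritic cell markers ran between 3.99 for Itgam and 10.7 for Cd74. These heights alone do not show which cells were present. In whole kidney, fewer cells of a type and less RNA per cell cannot be told apart. Array medians lay between 5.66 and 6.06 and the SD over the probe sets of an array, called the array spread below, between 2.29 and 2.54.

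The question at day 7 is how the kidney differs after 7 days of indole-3-carbinol, whatever the strain. None of the 27 ligands or 29 receptors passed the threshold averaged over the 4 strains (limma, Benjamini-Hochberg over all 8797 probe sets), where 4.94% of all probe sets did, 1.19% higher and 3.75% lower. At an unadjusted p under 0.05 there were 7 of the 56, 2 higher and 5 lower, against 20.5% of all probe sets. The 56 differences had a median of 0.01 and ran between -0.35 and 0.17, and the median over all probe sets was -0.03. For 54 of the 56 the 95% interval lay within 0.5 of 0. The exceptions were Tnfsf10 and Il33. These intervals bound the change in array signal and not that in RNA, above all for the 18 dim genes.

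The 5 genes nearest the threshold on the lower side were Il18, Tnfsf10, Il33, Il15 and Il10ra. Il18, the inflammasome-processed ligand that drives interferon gamma, had a lowest, median and highest signal of 3.20, 3.48 and 3.98 at day 7, against 3.42, 3.69 and 4.24 at day 0 (16 arrays each). The groups overlapped, and the difference was -0.25 ± 0.08 (SE), with a limma adjusted p of 0.0562. Tnfsf10, the death ligand TRAIL, had 6.53, 7.14 and 7.53 at day 7, against 6.46, 7.39 and 8.01 at day 0. Its difference was -0.35 ± 0.12 (SE, limma adjusted p = 0.0691), with the lowest array of all 32 at day 0. Il33, an alarmin stored in the nuclei of endothelial, epithelial and fibroblastic cells, had 6.72, 7.40 and 8.07 at day 7, against 7.03, 7.67 and 8.29 at day 0, and differed by -0.34 ± 0.12 (SE, limma adjusted p = 0.0909). By strain the Il33 difference was -1.07 in LF, -0.08 in F, -0.15 in L and -0.08 in FL, so the average rests mostly on LF. Il15, the survival factor of natural killer and memory T cells, differed by -0.25 (limma adjusted p = 0.0928). Il10ra, the ligand-binding chain of the Il10 receptor, differed by -0.20 (limma adjusted p = 0.0964).

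Every run of arrays held 1 array of each group, and within each of the 4 runs all 5 genes were lower at day 7, with differences of -0.14, -0.32, -0.28 and -0.26 for Il18 and, for Tnfsf10, -0.31, -0.61, -0.19 and -0.31. Il12a, Il11ra1, Il1rap and Il10 were also lower in all 4 runs. The 5 genes were picked from this same contrast, which averages the 4 runs, so their agreement is no separate support. With the run as a block all 5 passed the threshold in limma, with adjusted p-values of 0.0171 for Il18, 0.0211 for Il33, 0.0242 for Il15, 0.0291 for Tnfsf10 and 0.0443 for Il10ra. The share of all probe sets given above for day 7 comes from the fit without the block, so it is not the share for this count. The array spread averaged 2.41 at day 7, against 2.45 at day 0, and with it as a covariate all 5 differences were over 1.5 times smaller and none passed. They were then -0.14 for Il18, -0.19 for Tnfsf10, -0.15 for Il33, -0.12 for Il15 and -0.12 for Il10ra (limma adjusted p = 0.148, 0.209, 0.237, 0.29 and 0.303). Leaving out single arrays gave between 0 and 4 lower genes. The count was 4 without L day 0 replicate 4 and 2 without each of FL day 0 replicate 3, FL day 10 replicate 4, FL day 7 replicate 2, LF day 7 replicate 1 and F day 7 replicate 1. It was 1 without each of F day 0 replicate 1, LF day 0 replicate 3, LF day 0 replicate 4 and F day 10 replicate 1.

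**Figure D1:**
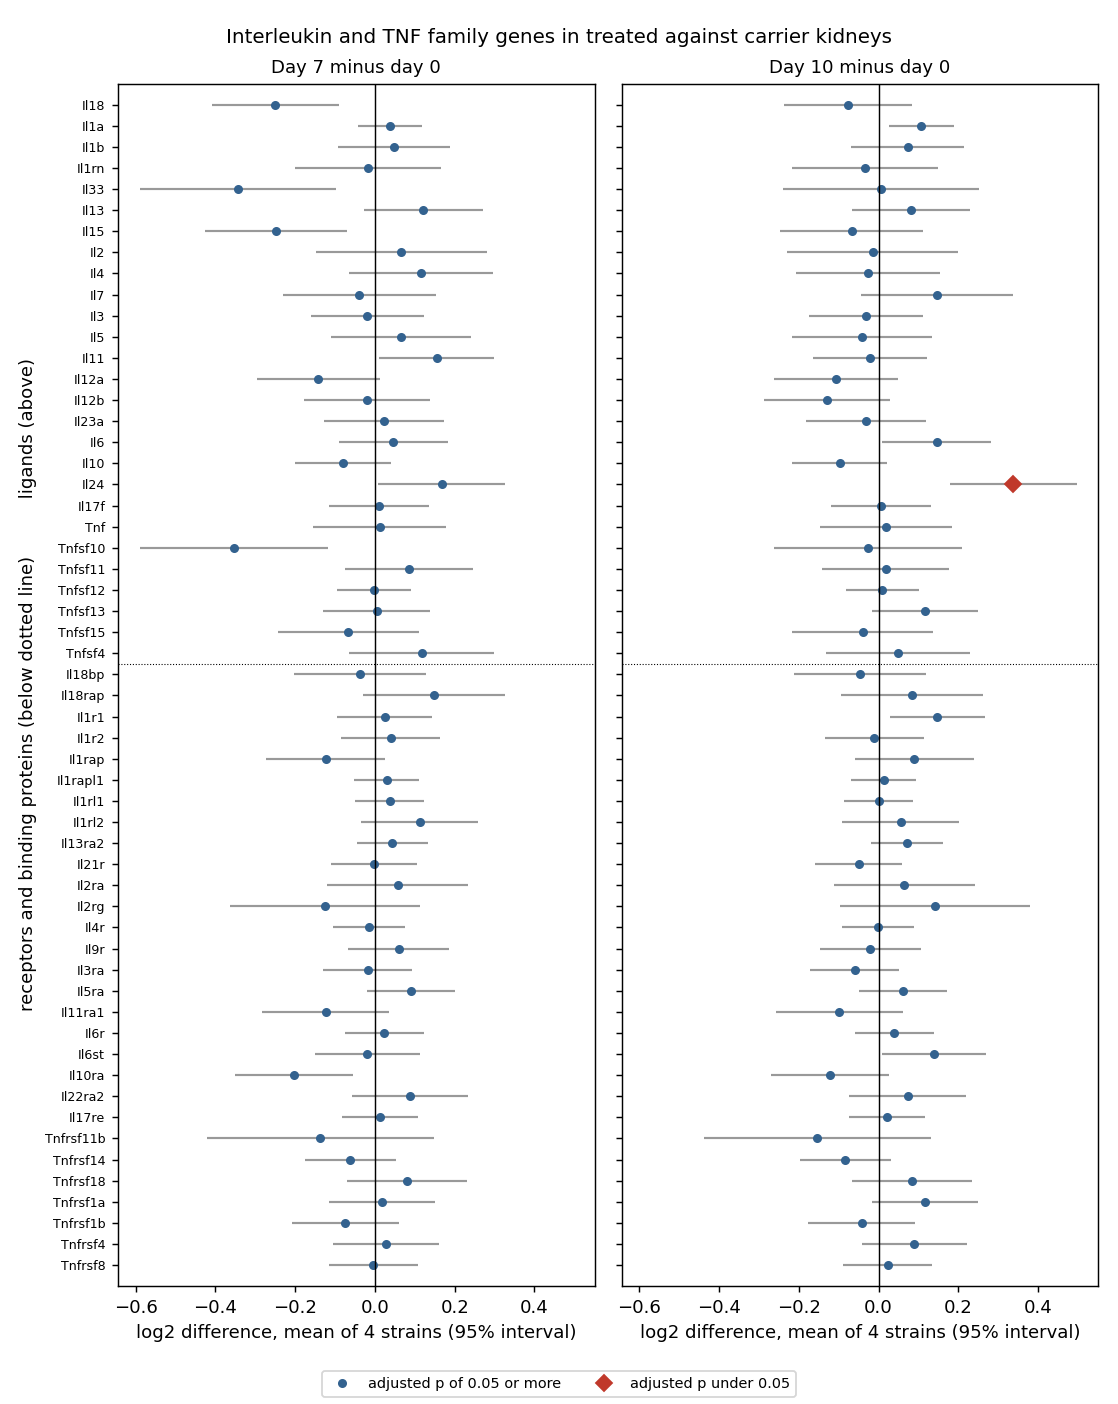
Difference of each of the 56 genes from day 0 averaged over the 4 strains at day 7 (left) and day 10 (right), in log2 units, with 95% intervals; ligands stand above the dotted line and receptors below. No gene passed an adjusted p of 0.05 at day 7, where Il18, Tnfsf10, Il33, Il15 and Il10ra lie furthest to the left, and Il24 alone passed at day 10.

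Markers of white cells moved in part at day 7, where 105 of all 8797 probe sets were higher and 330 lower. Of 10 measured macrophage and dendritic cell genes (of 16 listed) 0 rose and 3 fell, with differences of -0.56 for Fcgr3a, -0.39 for Adgre1 and -0.28 for Aif1 (limma adjusted p = 0.00929, 0.0249 and 0.00566). Their mean level, centred over all arrays, ran between -0.32 and 0.19 at day 7, against -0.30 and 0.40 at day 0, so the days overlapped. None of 4 measured genes shared by all white cells passed. Their part in the values of Il18, Tnfsf10, Il15 and Il10ra was not tested.

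The textbook pro-inflammatory genes lay near 0 at day 7. Tnf itself had signals of 4.89, 5.42 and 5.81 (lowest, median and highest) at day 7, against 4.89, 5.46 and 5.74 at day 0, and differed by 0.01 with an interval of -0.15 to 0.18. Il1b differed by 0.05 (-0.09 to 0.19), Il6 by 0.05 (-0.09 to 0.18), Il10, the main anti-inflammatory interleukin, by -0.08 (-0.20 to 0.04) and Il1rn, which blocks the Il1 receptor, by -0.02 (-0.20 to 0.17). Among receptors, Il1r1 differed by 0.02, Il6r by 0.02, Il6st by -0.02, and the TNF receptors Tnfrsf1a by 0.02 and Tnfrsf1b by -0.07. None of these 10 intervals reached 0.25 in either direction. Il6, Il10 and Il1rn are dim probe sets, so their intervals say little about the change in RNA. The signs of Tnf and Il6 turned with the array spread as a covariate, those of Il1rn, Il6st and Tnfrsf1b under other scalings too.

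At day 10 the same question has 1 answer among the 56 genes. Il24, an interleukin of the Il10 family that activates STAT3 in epithelial cells, was the gene past the threshold averaged over the strains, where 2.41% of all probe sets passed, 1.26% higher and 1.15% lower. Il24 (probe set 7110941) had log2 signals with a lowest, median and highest of 2.83, 3.56 and 3.76 at day 10, against 2.67, 3.20 and 3.44 at day 0 (16 arrays each). The ranges overlapped, and day 7 had 2.85, 3.30 and 3.81. The rise over day 0 was 0.34 ± 0.08 (SE, interval 0.18 to 0.50, limma adjusted p = 0.00937). It was positive in each run, at 0.53, 0.48, 0.17 and 0.17, which are the values that the rise averages. The signal is dim throughout, so it is not among the probe sets tested when the dimmest 25% are left out.

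By strain, LF kidneys had 3.65, 3.64, 3.73 and 3.48 for Il24 at day 10, against 2.84, 2.74, 3.44 and 3.26 at day 0. All day 10 arrays of LF lay above all its day 0 arrays, and the LF difference alone was 0.56 (limma adjusted p = 0.0864). F kidneys had 3.43, 3.76, 3.28 and 3.58 at day 10, against 3.13, 3.28, 3.24 and 3.17 at day 0, which touch at 3.28. FL kidneys had 3.20, 3.27, 3.61 and 3.55 at day 10, against 3.09, 3.23, 3.31 and 3.07, and L kidneys 3.57, 3.58, 3.33 and 2.83, against 2.67, 3.06, 3.27 and 3.28, with overlap in both strains. The L array of 2.83 was below 3 of its 4 carrier arrays.

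**Figure D2:**
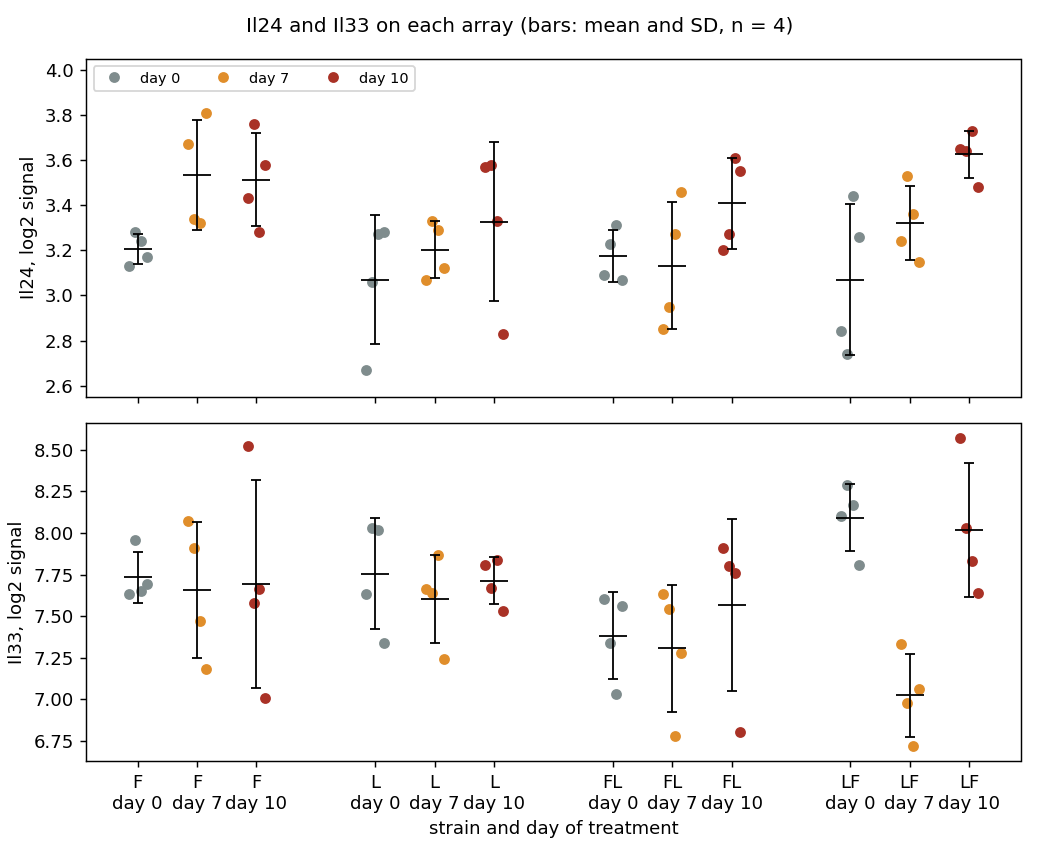
Log2 signal of Il24 (top) and Il33 (bottom) on each of the 48 arrays by strain and day, with mean and SD (n = 4). LF day 10 arrays of Il24 lie between 3.48 and 3.73, above LF day 0, and LF day 7 arrays of Il33 lie between 6.72 and 7.33, below LF day 0.

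Besides Il24, 4 genes had an unadjusted p under 0.05 at day 10, all 5 of them higher, against 9.44% of all probe sets. Il1a, the gene of interleukin 1 alpha, differed by 0.11 (limma adjusted p = 0.221), its receptor Il1r1 by 0.15 (0.283 by the same fit), Il6 by 0.15 and the Il6 signal chain Il6st by 0.14. For Il6 the adjusted p in limma was 0.461 and for Il6st 0.464. Il1r1 had signals of 5.77, 6.18 and 6.36 (lowest, median and highest) at day 10, against 5.59, 5.96 and 6.23 at day 0. Il6st had 8.51, 9.09 and 9.37 at day 10, against 8.52, 8.86 and 9.29 at day 0. These receptors passed in limma after a second quantile normalization (adjusted p = 0.0146 for Il1r1 and 0.00855 for Il6st), after subtraction of the array medians (0.0209 and 0.0386 in the same order) and with the array spread as a covariate (0.00561 and 0.000817). Within runs Il6st was positive in all 4 (0.25, 0.04, 0.19 and 0.08) and Il1r1 in 3 (0.23, -0.01, 0.27 and 0.10).

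The genes that stood lowest at day 7 were close to 0 at day 10: Il18 differed from day 0 by -0.08, Tnfsf10 by -0.03, Il33 by 0.01, Il15 by -0.07 and Il10ra by -0.12. Tnf differed by 0.02 (-0.15 to 0.18), Il1b by 0.07, Il10 by -0.10, Il1rn by -0.03, Il6r by 0.04, Tnfrsf1a by 0.12 and Tnfrsf1b by -0.04, with none past the threshold. All 56 intervals lay within 0.5 of 0. The median over the 56 was 0.01 and over all probe sets -0.003. Both treated days share the day 0 arrays, so their values are not independent of each other.

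**Figure D3:**
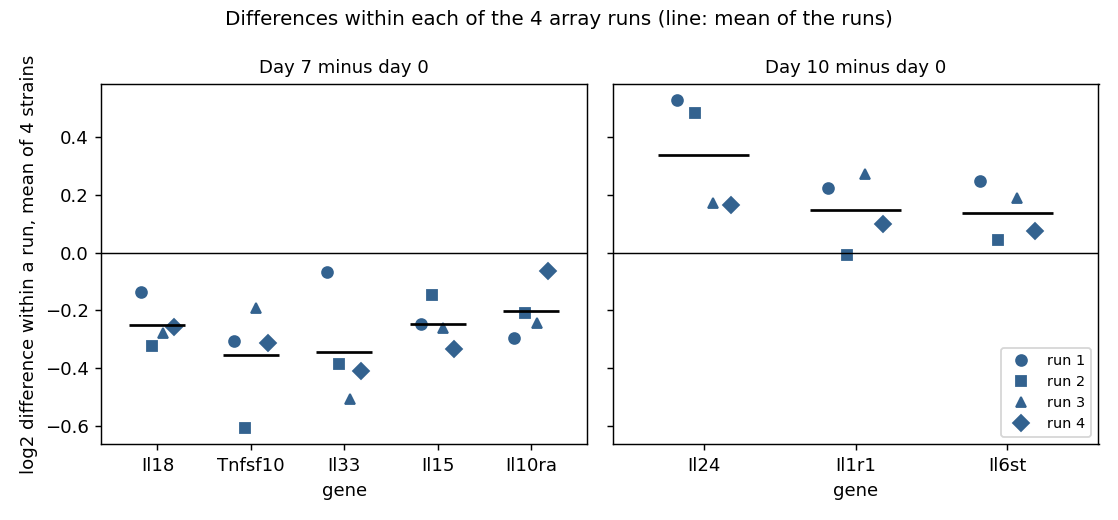
Differences from day 0 within each of the 4 array runs, in log2 units averaged over the 4 strains, for the 5 genes nearest the threshold at day 7 (left) and for Il24, Il1r1 and Il6st at day 10 (right). All 20 points on the left lie below 0, and on the right Il24 lies between 0.17 and 0.53. The genes were picked from the averages of these same points.

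Day 10 was also set against day 7 directly. No gene of the 56 passed, and 0.114% of all probe sets did, 0.0909% higher and 0.0227% lower. At an unadjusted p under 0.05 there were 10 of the 56, 9 higher and 1 lower, against 13.6% of all probe sets. The smallest p-values were those of Il1rap (0.21), Il33 (0.35) and Tnfsf10 (0.33), each with a limma adjusted p of 0.282. Il1rap is the accessory chain that the receptors for Il1, Il33 and Il36 all need. Il18 differed by 0.17, Il6st by 0.16, Il1r1 by 0.12 and Il6 by 0.10. Tnf differed by 0.01, Il1b by 0.03, Il10 by -0.02, Il1rn by -0.02, Il6r by 0.02, Tnfrsf1a by 0.10 and Tnfrsf1b by 0.03.

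Within single strains each comparison rests on 4 arrays against 4, and the median standard error was 0.145, against 0.0723 averaged over the strains. The 1 gene past the threshold in any strain was Il33 in LF at day 7, where 2.26% of all probe sets passed, 0.386% higher and 1.88% lower. Il33 (probe set 7041124) had 7.33, 6.98, 6.72 and 7.06 in LF at day 7, against 8.10, 8.29, 8.17 and 7.81 in LF at day 0. The ranges were apart, and LF at day 10 was back at 8.57, 8.03, 7.83 and 7.64. The day 7 signal fell by 1.07 on the log2 scale (SE 0.24, interval -1.56 to -0.58, limma adjusted p = 0.0107). In the runs the difference was -0.77, -1.31, -1.45 and -0.75. The other strains differed by -0.08 (F), -0.15 (L) and -0.08 (FL), with overlapping arrays.

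The array spread moved with the same groups: it was 2.46, 2.44, 2.33 and 2.36 on the LF day 7 arrays, against 2.49, 2.54, 2.46 and 2.41 on the LF day 0 arrays. With the array spread as a covariate the Il33 difference was -0.67 and still past the threshold (limma adjusted p = 0.00247). Subtracting array medians moved the median of all probe sets in this comparison by 0.12 and gave Il33 a difference of -0.95. The call was lost without LF day 0 replicate 2 (limma adjusted p = 0.068) or LF day 7 replicate 3 (0.0603), which left 0 lower genes. The count was 2 without FL day 0 replicate 3, LF day 0 replicate 4 or LF day 7 replicate 1, and 3 without FL day 10 replicate 4.

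Markers of macrophages were lower in the same arrays. Their centred mean level was -0.32 to -0.06 in LF at day 7, against 0.05 to 0.40 in LF at day 0, and 3 of 10 measured genes fell, with differences of -1.27 for Fcgr3a, -0.93 for Adgre1 and -0.55 for Aif1 (limma adjusted p = 0.00605, 0.0114 and 0.0129), with 0 higher. The only measured endothelial marker of 8 listed, Plvap, differed by -0.30, and 0 of 5 measured fibroblast and pericyte markers passed. The part of these cells in the Il33 value was not tested.

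Next to Il33 in LF at day 7 stood Tnfsf10, Il15, Il1rap and Tnfsf13, of which Tnfsf13 (APRIL) supports plasma cells. Tnfsf10 had 7.15, 6.64, 6.53 and 6.69 in LF at day 7, against 7.43, 7.91, 7.34 and 7.34 in LF at day 0, with no overlap and a difference of -0.75 (limma adjusted p = 0.0781). Il15 had 4.74, 4.68, 4.31 and 4.62 in LF at day 7, against 5.26, 5.39, 4.94 and 4.94, again apart, with a difference of -0.55 (0.0915 in limma). Il1rap differed by -0.46 (limma adjusted p = 0.0915) and Tnfsf13 by -0.37 (0.125). With the run as a block these 4 passed too, which made 5 lower genes against 1 (limma adjusted p = 0.0286 for Tnfsf10, 0.0204 for Il15, 0.0273 for Il1rap and 0.0346 for Tnfsf13). The share of all probe sets past the threshold given for LF at day 7 is that of the fit without the block. At an unadjusted p under 0.05 there were 7 of the 56, 1 higher and 6 lower, against 19% of all probe sets.

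**Figure D4:**
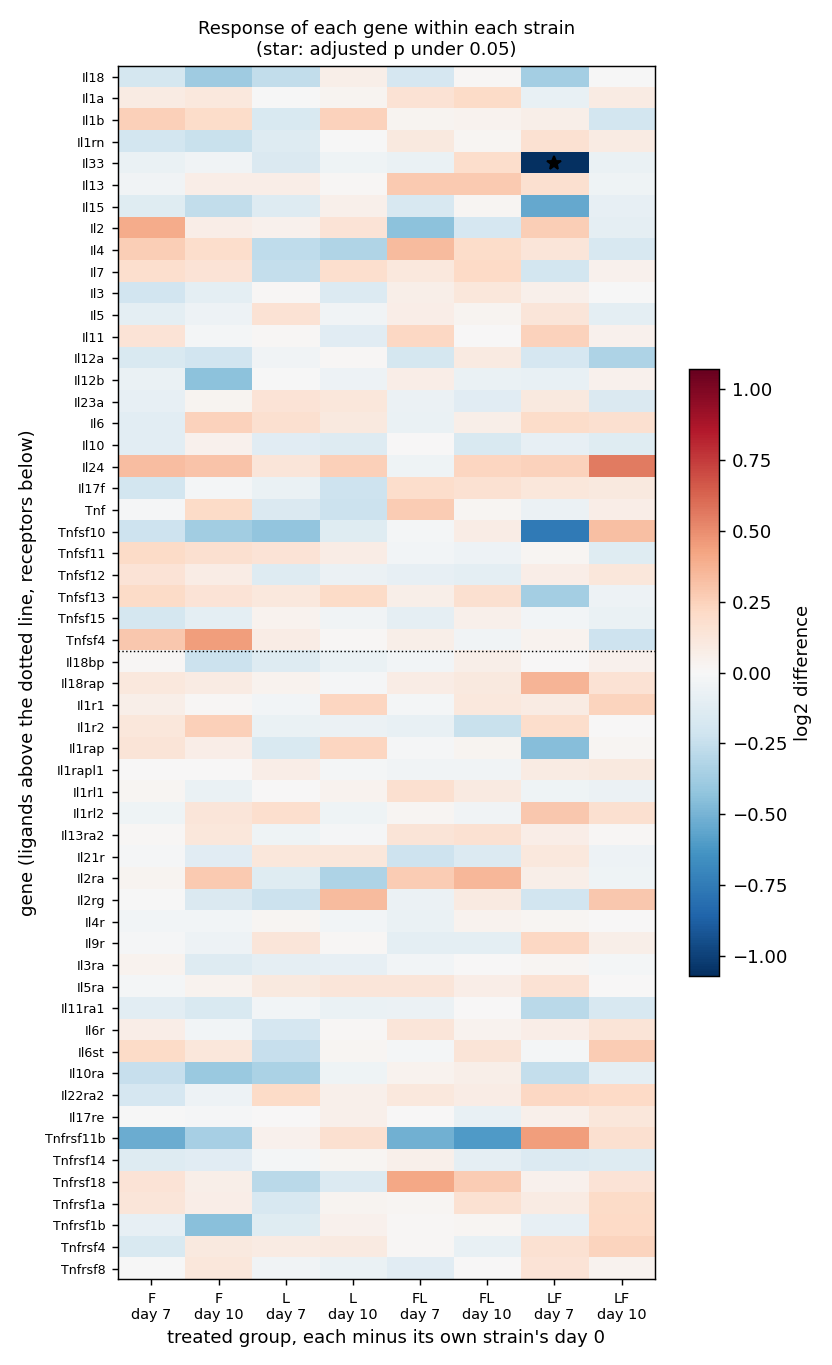
Log2 difference of each gene (rows, ligands above the dotted line) from day 0 of its own strain in the 8 treated groups (columns); blue is lower and red higher than day 0, and a star marks an adjusted p under 0.05. The 1 star is Il33 in LF at day 7, at -1.07; the LF day 7 column also holds -0.75 for Tnfsf10 and -0.55 for Il15.

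In LF at day 10, 0.887% of all probe sets (0.591% higher and 0.296% lower) and none of the 56 genes passed. At an unadjusted p under 0.05, which 6.6% of all probe sets had, there were 3 genes: Il24 (0.56), Il12a (-0.33), which encodes a subunit of interleukin 12, and Il6st (0.27). The limma adjusted p-values were 0.0864, 0.676 and 0.725. Without LF day 0 replicate 3 there was 1 higher gene.

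In F at day 7, 0.671% of all probe sets (0.432% higher and 0.239% lower) and none of the 56 passed, with 1 at an unadjusted p under 0.05 against 6.92% of all probe sets. The smallest p-values were those of Il24 (0.33), Tnfrsf11b (-0.53) and Il2 (0.40), with limma adjusted p-values of 0.682, 0.785 and 0.785. Tnfrsf11b is osteoprotegerin, the soluble decoy for Tnfsf11. In F at day 10, 0.239% of all probe sets passed (0.0796% higher and 0.159% lower) and again none of the 56, with 6 at an unadjusted p under 0.05 against 9.36%. Tnfrsf1b, the TNF receptor of leukocytes and regulatory T cells, had 6.48, 6.22, 5.96 and 6.02 in F at day 10, against 6.52, 6.55, 6.73 and 6.67 in F at day 0. The groups did not overlap, at a difference of -0.45 (limma adjusted p = 0.18). The p40 subunit gene Il12b differed by -0.43 and Il10ra by -0.40 (limma adjusted p = 0.302 and 0.33).

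L kidneys gave the fewest differences. At day 7 and at day 10, 0.0114% of all probe sets passed, none of them among the 56, and all lower. An unadjusted p under 0.05 was seen for 1 of the 56 at day 7, against 4.01% of all probe sets, and for 0 at day 10, against 4.3%. The smallest p-values at day 7 were those of Il10ra (-0.34), Tnfrsf18 (-0.29), the T cell receptor GITR, and Il6st (-0.24), each at a limma adjusted p of 0.994. At day 10 they were those of Il1r1 (0.23), Il2ra (-0.33) and Il4 (-0.32), each at 0.999, and Il4 was at -0.081 without L day 0 replicate 1. In FL, 0.159% of all probe sets passed at day 7 (0.0227% higher and 0.136% lower) and 0.0909% at day 10 (0.0455% higher and 0.0455% lower), with none of the 56. At each day 3 had an unadjusted p under 0.05, against 6.21% of all probe sets at day 7 and 4.24% at day 10. Those were Tnfrsf18 (0.41), Il2 (-0.44) and Il21r (-0.22) at day 7, and Il1a (0.20), Tnfrsf11b (-0.60) and Il2ra (0.35) at day 10. The smallest limma adjusted p was 0.528 at day 7 and 0.947 at day 10.

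Whether the response differed among strains was tested directly with the strain by day F test of limma. None of the 56 genes passed, against 0.193% of all probe sets, and 4 had an unadjusted p under 0.05, where 6.23% of all probe sets did. These were Tnfrsf1b, Tnfsf10, Il1b and Il33, with adjusted p-values of 0.588, 0.665, 0.737 and 0.739. In this fit Il33 passing in LF alone is therefore not shown to differ from its values in the other strains. With array weights the count of genes past this F test changed, as given in the last section, and the gene is not named there. Il1b, made mostly by activated macrophages, differed from day 0 by 0.26 in F, -0.17 in L, 0.03 in FL and 0.07 in LF at day 7, and by 0.20, 0.24, 0.04 and -0.19 at day 10.

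Carrier kidneys of the strains were compared next. FL against LF gave 2 of the 56 genes, 1 higher and 1 lower, where 3.07% of all probe sets passed, 0.796% higher and 2.27% lower. At an unadjusted p under 0.05 there were 7 of the 56, against 15% of all probe sets. Tnfsf12, the ligand TWEAK that acts on tubule cells, had 6.85, 7.17, 6.89 and 6.99 in FL (probe set 7079139), against 6.71, 6.85, 6.46 and 6.45 in LF. The groups touched at 6.85, and FL was higher by 0.36 ± 0.09 (SE, limma adjusted p = 0.0176). Within runs the difference was 0.14, 0.32, 0.43 and 0.54. Il1rap had 5.95, 5.69, 5.37 and 5.92 in FL (probe set 7094591), against 6.54, 6.42, 6.17 and 5.94 in LF. Here 1 LF array lay below the highest FL array, and the FL signal fell by 0.54 relative to LF (SE 0.15, limma adjusted p = 0.0336). Within runs the difference was -0.59, -0.73, -0.80 and -0.02.

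Neither call held in every set of arrays. With only the FL and LF carrier arrays in the fit, Tnfsf12 and Il1rap did not pass (limma adjusted p = 0.198 and 0.159), and the 1 lower gene was Il33 (0.0403). Tnfsf12 was lost without FL day 0 replicate 2, LF day 0 replicate 3 or LF day 0 replicate 4 (limma adjusted p = 0.118, 0.0854 and 0.0735). Il1rap was lost without FL day 0 replicate 2, FL day 0 replicate 3, LF day 0 replicate 1 or LF day 0 replicate 2 (0.0901, 0.206, 0.185 and 0.148).

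Il33 came next by p in FL against LF. It had 7.60, 7.34, 7.03 and 7.56 in FL, against 8.10, 8.29, 8.17 and 7.81 in LF, with no overlap, a difference of -0.71 and a limma adjusted p of 0.11 (0.0246 with the run as a block). These LF arrays are also the carrier arrays of the LF day 7 comparison, and the FL values are the lowest carrier values of Il33 among the strains by mean (7.38 ± 0.26, against 7.73 ± 0.15 in F, 7.75 ± 0.33 in L and 8.09 ± 0.20 in LF, SD, n = 4 each). Macrophage and dendritic cell markers had a centred mean level of -0.30 to -0.05 in FL, against 0.05 to 0.40 in LF, and 3 of 10 were lower in FL, with differences of -1.09 for Fcgr3a, -0.70 for Lyz2 and -0.63 for C1qa (limma adjusted p = 0.015, 0.0303 and 0.0429), with 0 higher. The white cell marker Cd53 was lower too, at -0.65 (limma adjusted p = 0.0133), and 3 of 4 such genes did not pass. Their part in the Il1rap and Il33 values was not tested.

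**Figure D5:**
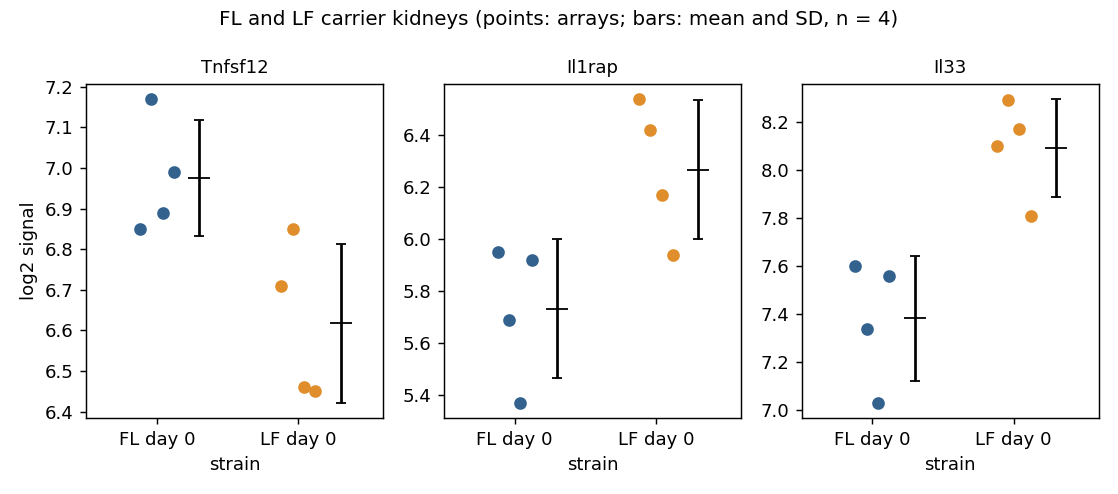
Log2 signals of Tnfsf12, Il1rap and Il33 on the 4 FL and 4 LF carrier arrays, with mean and SD. Tnfsf12 is higher in FL (6.97 against 6.62), Il1rap lower in FL (5.73 against 6.27) and Il33 is at 7.38 in FL against 8.09 in LF, where it misses the threshold.

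F against L at day 0 had none of the 56 past the threshold, where 1.55% of all probe sets passed, 0.693% higher and 0.853% lower, and 6 at an unadjusted p under 0.05, against 8.18% of all probe sets. Il4r, the receptor chain shared by Il4 and Il13, had 8.52, 8.52, 8.55 and 8.40 in F, against 9.02, 8.88, 8.71 and 8.64 in L. All F arrays lay below all L arrays, with a difference of -0.32 (limma adjusted p = 0.0635, and 0.0153 with the run as a block). It was past the threshold without L day 0 replicate 4 (limma adjusted p = 0.0237), and 1 lower gene was also counted without FL day 10 replicate 4 or F day 10 replicate 4. The treated kidneys entered this comparison through the shared spread alone and not through the difference. They had Il4r means of 8.47 in F at both treated days, against 8.83 in L at day 7 and 8.79 in L at day 10. Il4, the ligand of that chain, differed by -0.45 and Tnfsf13 by 0.29 (limma adjusted p = 0.341 and 0.51). The Il4 value was -0.21 without L day 0 replicate 1, which had 3.86 where the other L carrier arrays had at most 3.16. FL against F, with 0.0682% of all probe sets past the threshold (0.0341% higher and 0.0341% lower), gave Il1r2 (0.30), the decoy receptor of interleukin 1, Tnfsf11 (0.28) and Il21r (0.19), each at a limma adjusted p of 0.995. LF against L, with 0.193% past the threshold (0.136% higher and 0.0568% lower), gave Tnfrsf11b (-0.60), Il7 (0.40) and Tnfsf12 (-0.19), each at 0.997. None of the 56 passed in these comparisons, and an unadjusted p under 0.05 was seen for 1 in FL against F, where 4.17% of all probe sets had it, and for 4 in LF against L, where 4.82% did.

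Members that lie side by side on a chromosome did not share a call. So few genes were called that a shared call was unlikely in any case, and no conclusion about neighbours is drawn. Of the called genes, Tnfsf12 alone had another member directly beside it. Tnfsf12 and Tnfsf13 are neighbours on chromosome 10, and in FL against LF, Tnfsf13 did not pass. On chromosome 9, Il1r2, Il1r1, Il1rl2, Il1rl1 and Il18rap lie within 1 or 2 genes of the next, and on chromosome 13 Il24 and Il10 are 3 genes apart. At day 10 Il24 rose by 0.34 while Il10 differed by -0.10 with an interval of -0.22 to 0.02.

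The signalling genes downstream of these receptors moved in part. Averaged over the strains at day 7, 105 of all 8797 probe sets were higher and 330 lower, and the shares of the other comparisons are given above. Of 29 measured genes of 65 on a list of NF-kB, death receptor and JAK-STAT components, 0 rose and 4 fell in that comparison. The list median was -0.06 against -0.03 over all probe sets. The 4 were Stat5a (-0.33), Stat2 (-0.26), Stat5b (-0.26) and the kinase gene Jak1 (-0.22) (limma adjusted p = 0.00501, 0.038, 0.0387 and 0.0491). Stat5a and Stat5b carry signals of the Il2 and Il3 groups, and Stat2 those of type I interferon. At day 10, 2 rose and 0 fell: Stat3, which carries the Il6 and Il10 family signals, by 0.22, and the necroptosis kinase gene Ripk3 by 0.23 (limma adjusted p = 0.00421 and 0.0381). In LF at day 7 none passed, and in LF at day 10 2 were higher, Stat3 by 0.43 and Birc3 by 0.76 (limma adjusted p = 0.0101 and 0.0305). In FL at day 7 Stat5a was lower, with a difference of -0.72 (limma adjusted p = 0.0158). In FL against LF at day 0 1 passed, Stat5a, which was higher by 0.59 (limma adjusted p = 0.0151). Both of these Stat5a values use the FL carrier arrays. The list held no call for day 10 against day 7. Its counts rest on single arrays: leaving out 1 array gave 1 to 5 genes at day 7 and 1 to 3 at day 10, and moved the count by over 1.5 times for 20 and 16 of the 48 arrays, spread over all 4 strains.

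Genes known to be induced by Il1, Il6 or TNF were counted in the same way, 39 measured of 48. Over all 8797 probe sets, 105 were higher and 330 lower at day 7, and the day 10 shares are given with Il24 above. Of the list, 6 were higher and 2 lower at day 7, with a median of 0.04 against -0.03 over all probe sets. At day 10, 7 of the list were higher and 0 lower. Without FL day 7 replicate 3, 5 in place of 8 passed at day 7. The higher genes were mostly acute-phase genes. Serpina3n, a protease inhibitor, rose by 0.91 at day 7 and 1.13 at day 10, the fibrinogen gene Fgb by 0.58 and 0.92, Timp1, an inhibitor of matrix metalloproteinases, by 0.50 and 0.83, and Lcn2, an iron-scavenging protein of injured tubules, by 0.35 and 0.75. Their limma adjusted p-values were 0.000911, 0.00121, 0.00153 and 0.0365 at day 7, and 3.56e-05, 8.99e-07, 5.40e-07 and 3.84e-06 at day 10. The 2 lower genes at day 7 were the macrophage growth factor gene Csf1 (-0.26, limma adjusted p = 0.0171) and the interferon-induced chemokine gene Cxcl10 (-0.28, 0.0362). In LF, 6 were higher and 0 lower at day 7, led by Lcn2 (1.24) and Serpina3n (2.13), with limma adjusted p-values of 0.000216 and 0.000197. Among the single strains Lcn2 and Serpina3n passed in LF alone, and the day 7 average of Lcn2 rests mostly on LF. At day 10 they had risen there by 2.205 and 2.215, above their averages over the strains. In the same comparisons Il6, Il1b and Tnf, whose proteins are known to induce these genes, had intervals that included 0, except Il6 at day 10 averaged over the strains (0.01 to 0.28). Il6 is a dim probe set, and proteins were not measured. The part of Il6, Il1b and Tnf in the rises of the list was not tested. In FL against LF, the gelatinase gene Mmp9 was higher by 0.94, and Lcn2 and the copper carrier gene Cp were lower, at -0.83 and -0.69 (limma adjusted p = 0.00014, 0.0138 and 0.0441).

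Other cell types were followed with marker lists, and the shares of all probe sets called in the same comparisons are given above. Kidney tubule and podocyte markers fell in 6 of 9 measured genes at day 7 and 2 of 9 at day 10 averaged over the strains, and in 2 of 9 in LF at day 7, with 0 higher each time. The strongest by p was the water channel gene Aqp2, at -0.52 at day 7 (limma adjusted p = 5.40e-05). Of 13 measured T and natural killer cell genes Cd4 alone fell, with differences of -0.30 at day 7 and -0.33 at day 10 (limma adjusted p = 0.0485 and 0.0439). The 1 measured B cell gene, Cd79b, and the 6 measured granulocyte and mast cell genes had no call at either day averaged over the strains. Of 5 measured fibroblast and pericyte genes 2 rose, Lum by 0.65 and Tagln by 0.45 at day 7 (limma adjusted p = 0.00012 for each), and 0 fell. The endothelial marker Plvap fell by 0.24 at day 7 (limma adjusted p = 0.0244). Itgam was the macrophage marker that was higher at day 10, by 0.14 (limma adjusted p = 0.0306), with 0 of 10 lower.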

How the data were processed

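Kidney RNA was measured on 48 whole-transcript arrays. The deposited values are log2 signals per probe set; per the submitters' processing notes RMA and limma were among the tools, and their versions and settings are not given in the sources used here. All 8797 probe sets and 48 columns were used as deposited, with 0 unmapped columns. Of the probe sets, 7603 had 1 gene symbol, 409 several and 785 none, and symbols were updated through the Entrez identifier for 7584. Where a gene had several probe sets, that with the highest mean was taken.

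In R 4.3.3, limma 3.58.1 fitted 1 mean per group over the 48 arrays, with 36 residual degrees of freedom and 3.69 from the prior. From that fit 15 contrasts and 1 moderated F test of strain by day were read, two-sided, with Benjamini-Hochberg adjustment over all probe sets at 0.05. Intervals are 95% intervals for the single gene, and their width is limited by how many arrays there are. P-values measure the spread between these arrays. The script was tested on simulated data.

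The array file names in the labels carry 1 run stamp for each replicate number, and each of the 4 runs holds 12 arrays, 1 of every group. The numbers therefore pair the samples by run. Deviations from group means correlated at a mean of 0.0942 within and -0.0314 between runs (lowest within a run 0.0080).

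Genes named are all of the 56 past the threshold, the 3 with the smallest p in each comparison, Tnf, Il1b, Il6, Il10, Il18, Il1rn, Il1r1, Il6r, Il6st, Tnfrsf1a, Tnfrsf1b and Tnfsf10, and up to 4 called genes of each list with the smallest p. The genes, the lists and the tests were chosen with earlier results of these data known, so no count of a list is independent evidence. Genes next to the threshold and neighbours on a chromosome were named after their values were seen. Alternatives were the run as a block, a second quantile normalization, subtraction of array medians, array weights, the array spread as a covariate, the dimmest 25% of probe sets left out, an intensity trend with robust prior, only the arrays compared, and each array left out.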

Additional observations from a re-analysis of the deposited data

Results flagged for a closer look

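In 14 of the genes, each of the 12 groups of 4 arrays was examined for an array far from the other 3, by Dixon's 95% critical value. Of 168 groups 10 held one, and chance flags about 1 in 20. Tnfsf10 held 3 of them: 7.55 on F day 0 replicate 2, where the others had 7.32 to 7.35, 7.99 on L day 10 replicate 3 (others 7.33 to 7.40), and 7.91 on LF day 0 replicate 2 (others 7.34 to 7.43). FL day 10 replicate 4 was low for both Il33, at 6.80 (others 7.76 to 7.91), and Il15, at 4.10 (others 4.88 or more). Il1r1 was low on L day 0 replicate 4, at 5.59 (others 5.93 to 5.96), and Il4r on LF day 10 replicate 2, at 8.66 (others 8.76 to 8.78). Il6st was high on LF day 10 replicate 1, at 9.37 (others 9.10 to 9.12), Tnfrsf1b on L day 7 replicate 1, at 6.55 (others 6.44 to 6.45), and Tnfsf13 on F day 0 replicate 2, at 8.33 (others 8.19 to 8.21).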

How the results depend on the processing

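The calls of Il24 at day 10, Il33 in LF at day 7, and Tnfsf12 and Il1rap in FL against LF kept their sign in every alternative that gave a value. With the run as a block the count of lower genes was 5 averaged over the strains at day 7, 5 in LF at day 7, 1 in F against L and 2 in FL against LF, and the block changed no other count. After a second quantile normalization 1 gene was lower at day 7 and 3 were higher at day 10, 2 were higher in LF at day 10, 2 were higher and 1 was lower in F against L, and 2 and 2 in FL against LF. With array medians subtracted the counts were 1 lower at day 7, 3 higher at day 10, 2 higher and 1 lower in F against L, and 2 higher in FL against LF. With the array spread as a covariate they were 3 higher at day 10, 1 higher in F at day 7 and 1 in F at day 10, 1 higher in LF at day 7, 2 higher in LF at day 10, 2 higher and 2 lower in F against L, and 2 higher in FL against LF. Array weights gave 5 lower at day 7, 1 lower in F at day 10, 3 lower in LF at day 7, 1 lower in F against L, 2 lower in FL against LF, and 1 gene in the F test of strain by day. With only the arrays compared there were 2 lower at day 7, 0 higher in FL against LF, and 1 lower there, which was Il33 and not Il1rap; no F test could be fitted. Without the dimmest 25%, which holds Il24, 0 were higher at day 10. The trended prior changed no count. Leaving out single arrays gave 0 to 4 lower at day 7, 0 to 3 lower in LF at day 7, 0 to 1 higher in LF at day 10, 0 to 1 lower in F against L, and 0 to 1 higher and 0 to 1 lower in FL against LF.

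The signs that turned belong to differences that passed no threshold. Differences that took the other sign with the array spread as a covariate were Tnf -0.039, Il6 -0.000227, Il1rn 0.058, Il6st 0.088 and Tnfrsf1b 0.0069 for day 7 against day 0 averaged over the strains, Il10 0.028 and Tnfrsf1b -0.043 for day 10 against day 7 averaged over the strains, Il33 0.21 for F day 10 against F day 0, Il33 0.000496 for L day 7 against L day 0, Il33 0.13 for FL day 7 against FL day 0. Differences that took the other sign with array medians subtracted were Il1rn 0.039 and Il6st 0.038 for day 7 against day 0 averaged over the strains, Tnf -0.05, Il1b -0.032, Il6r -0.041 and Tnfrsf1b -0.026 for day 10 against day 7 averaged over the strains, Il33 0.025 for F day 10 against F day 0, Il24 0.005 for FL day 7 against FL day 0. Differences that took the other sign after a second quantile normalization were Il6st 0.044 and Tnfrsf1b 0.0070 for day 7 against day 0 averaged over the strains, Tnf -0.026, Il10 0.0045, Il1rn 0.0058, Il6r -0.035 and Tnfrsf1b -0.051 for day 10 against day 7 averaged over the strains, Il33 0.074 for F day 10 against F day 0, Il33 0.0067 for FL day 7 against FL day 0. Differences that took the other sign with array weights were Tnf -0.0021 and Il33 -0.0084 for day 10 against day 0 averaged over the strains, Tnf -0.043 for day 10 against day 7 averaged over the strains. Leaving out single arrays took other differences near 0 across it: for day 7 against day 0 averaged over the strains Tnf from -0.026 to 0.044, Il1rn from -0.06 to 0.024, Il1r1 from -0.0017 to 0.038, Il6st from -0.046 to 0.0031 and Tnfrsf1a from -0.010 to 0.036, for day 10 against day 0 averaged over the strains Tnf from -0.019 to 0.047, Il1rn from -0.072 to 0.0073, Tnfsf10 from -0.090 to 0.045 and Il33 from -0.062 to 0.071, for day 10 against day 7 averaged over the strains Tnf from -0.025 to 0.036, Il1b from -0.0021 to 0.062, Il10 from -0.042 to 0.014, Il1rn from -0.055 to 0.026 and Il6r from -0.0052 to 0.036, for F day 7 against F day 0 Il33 from -0.21 to 0.084, for F day 10 against F day 0 Il33 from -0.32 to 0.19, for L day 7 against L day 0 Il24 from -0.000833 to 0.20, for L day 10 against L day 0 Il33 from -0.18 to 0.049, for FL day 7 against FL day 0 Il24 from -0.15 to 0.052 and Il33 from -0.19 to 0.10, for LF day 10 against LF day 0 Il33 from -0.26 to 0.051. The cause of these turns was not tested. Counts of all probe sets also depended on scaling: averaged over the strains at day 7, 105 were higher and 330 lower as deposited, against 267 and 367 after a second quantile normalization and 268 and 225 with the spread.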
